A study of Mus musculus with 8 samples.

Results

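The 10 genes described here make glucose from smaller molecules or move and convert glycerol in the liver. They were picked by symbol from the 16540 genes counted: *Pc* (listed in the table as *Pcx*), *Pck1*, *Fbp1* and *G6pc* for the enzymes of glucose synthesis, *Ppargc1a* for a coactivator of their transcription, *Aqp3* and *Aqp9* for glycerol channels, and *Gk*, *Gpd1* and *Gpd2* for the enzymes that use glycerol. All 10 were found, and 9 had enough counts to be tested. Liver RNA came from 8 male *Apoe*-/- mice, which lack apolipoprotein E, accumulate cholesterol in plasma and were fed a Western diet, described in the study's methods as a high cholesterol diet. In the ISOGK group (n = 4), isoginkgetin, a biflavonoid found in *Ginkgo biloba* and studied as an inhibitor of the lipogenic enzyme ATP citrate lyase, was injected intraperitoneally at 20 mg/kg/day for 8 weeks. The control group (n = 4) received vehicle for as long. By the study's methods, the diet was begun weeks before the injections, to induce atherosclerosis. Both groups carry the knockout and ate the diet, so no mouse without either was measured. The age of the mice at collection, the background strain of the knockout, and whether food was withdrawn before the livers were taken are not given in the sources used here.

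Gluconeogenesis keeps blood glucose up between meals, and the liver is its main site. Pyruvate carboxylase and PEPCK carry pyruvate past the irreversible last step of glycolysis, fructose-1,6-bisphosphatase and glucose-6-phosphatase undo its other irreversible steps, and glucagon, glucocorticoids and insulin set the transcription of their genes. Glycerol set free by fat breakdown enters hepatocytes through aquaporins, is phosphorylated by glycerol kinase to glycerol 3-phosphate, and is then either oxidized by a glycerol 3-phosphate dehydrogenase toward glucose or esterified into triglyceride.

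Each library held 17457106 to 24461854 counted reads, 19605286 or more in the vehicle group and 21626399 or fewer in the ISOGK group. Levels are given as CPM, read counts relative to the size of the library after scaling with TMM, edgeR's method for making libraries comparable, and as the mean ± SD over mice. Hepatocyte markers (9 of 10 listed) summed to 163599 to 180187 CPM in the vehicle group and 152947 to 222311 CPM in the ISOGK group. The marker not found was searched as *Tf*, while the gene is listed as *Trf*, so it is not in the sum. Of 8 adipocyte markers, 3 were listed, and they summed to 4.21 to 7.28 CPM with vehicle and 5.65 to 7.81 CPM with ISOGK. *Adipoq*, *Plin1*, *Lep*, *Retn* and *Ucp1* were not listed. All 10 skeletal muscle markers were highest in vehicle mouse 4, where they summed to 79.0 CPM against 0 to 0.584 CPM in the other libraries. Kupffer cell markers summed to 1065 to 1370 CPM with vehicle and 851 to 1101 CPM with ISOGK. Of the 8 tested, *Cd68* was called lower, and their median log2 fold change was -0.54. Bile duct markers summed to 7.38 to 8.02 CPM and 8.44 to 16.1 CPM. Of the 5 tested, *Sox9* was called higher, and the median was 1.21. Red cell and neutrophil markers summed to 95.9 to 119 CPM and 70.7 to 146 CPM. Of the 7 tested, *S100a9* was called higher, and the median was 0.97. A call stands for an adjusted p under 0.05, which 7.55% of all tested genes had. The part of these cells in the results below was not tested, and in bulk liver fewer cells of a type cannot be told apart from less RNA per cell.

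The promoters of the member with the largest fold change, *Gk*, and of the most abundant member, *Pck1*, are printed as RefSeq gives them for GRCm38.p6, 5′ to 3′ on the strand of the gene and ending where the annotated gene begins. Capitals mark TTACGTCA, a cyclic AMP response element of the kind bound by CREB.
Gk: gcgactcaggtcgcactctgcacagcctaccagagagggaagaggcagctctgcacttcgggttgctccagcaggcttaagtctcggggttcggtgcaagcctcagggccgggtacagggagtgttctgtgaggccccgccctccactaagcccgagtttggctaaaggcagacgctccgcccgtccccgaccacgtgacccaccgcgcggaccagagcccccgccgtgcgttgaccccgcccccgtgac
Pck1: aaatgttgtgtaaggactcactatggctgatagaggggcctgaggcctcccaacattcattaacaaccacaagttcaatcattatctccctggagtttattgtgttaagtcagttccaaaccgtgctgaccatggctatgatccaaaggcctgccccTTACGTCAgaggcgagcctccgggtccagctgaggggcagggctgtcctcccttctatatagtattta
The *Gk* sequence lies at chrX:85776820-85777069 on the minus strand and the *Pck1* sequence at chr2:173152823-173153047 on the plus strand. Of the 10 members, 9 matched a RefSeq entry, with 12 windows of 250 bases before the start between them, and *Gpd1* did not. Searched on both strands, TTACGTCA was found in *Pck1* alone, 93 bases before the RefSeq start, and in 0.447% of all 32851 windows. TATAAA, the TATA box, stood 29 bases before the start of *G6pc* and of *Aqp3* and in 12.4% of all windows, and AGGTCA, the letters of a nuclear receptor element, stood on the other strand 54 bases before the start of *G6pc* and in 14.0%. TGACGTCA (1.55% of windows) and TGTTTAC (3.17%), letters bound by CREB and by forkhead factors, were in no window of a member. The *Gk* window held none of the motifs, and 67.2% of its bases were G or C. These matches describe letters only.

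Across the 9 tested members, *Gk* and *Gpd1* rose with ISOGK, none fell, and 7 did not pass the test at an adjusted p under 0.05 (edgeR's quasi-likelihood test, Benjamini-Hochberg adjustment over 12307 genes). By this rule 7.55% of all tested genes were called, 4.11% as higher and 3.44% as lower. No member passed the stricter rule that also asks for an absolute log2 fold change over 1, which 1.63% of all genes passed. All 9 members had a log2 fold change above 0, as had 50.2% of all genes, and their median was 0.35 against 0.00 over all genes. All 4 ISOGK-treated mice lay above all 4 vehicle-treated mice for *Gk*, *Gpd1*, *Pck1* and *Aqp9*, and so they did for 7.92% of all genes. Scaling by library size alone lowered the median of all genes by 0.13, and the 9 members stayed above 0 under it.

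**Figure D1:**
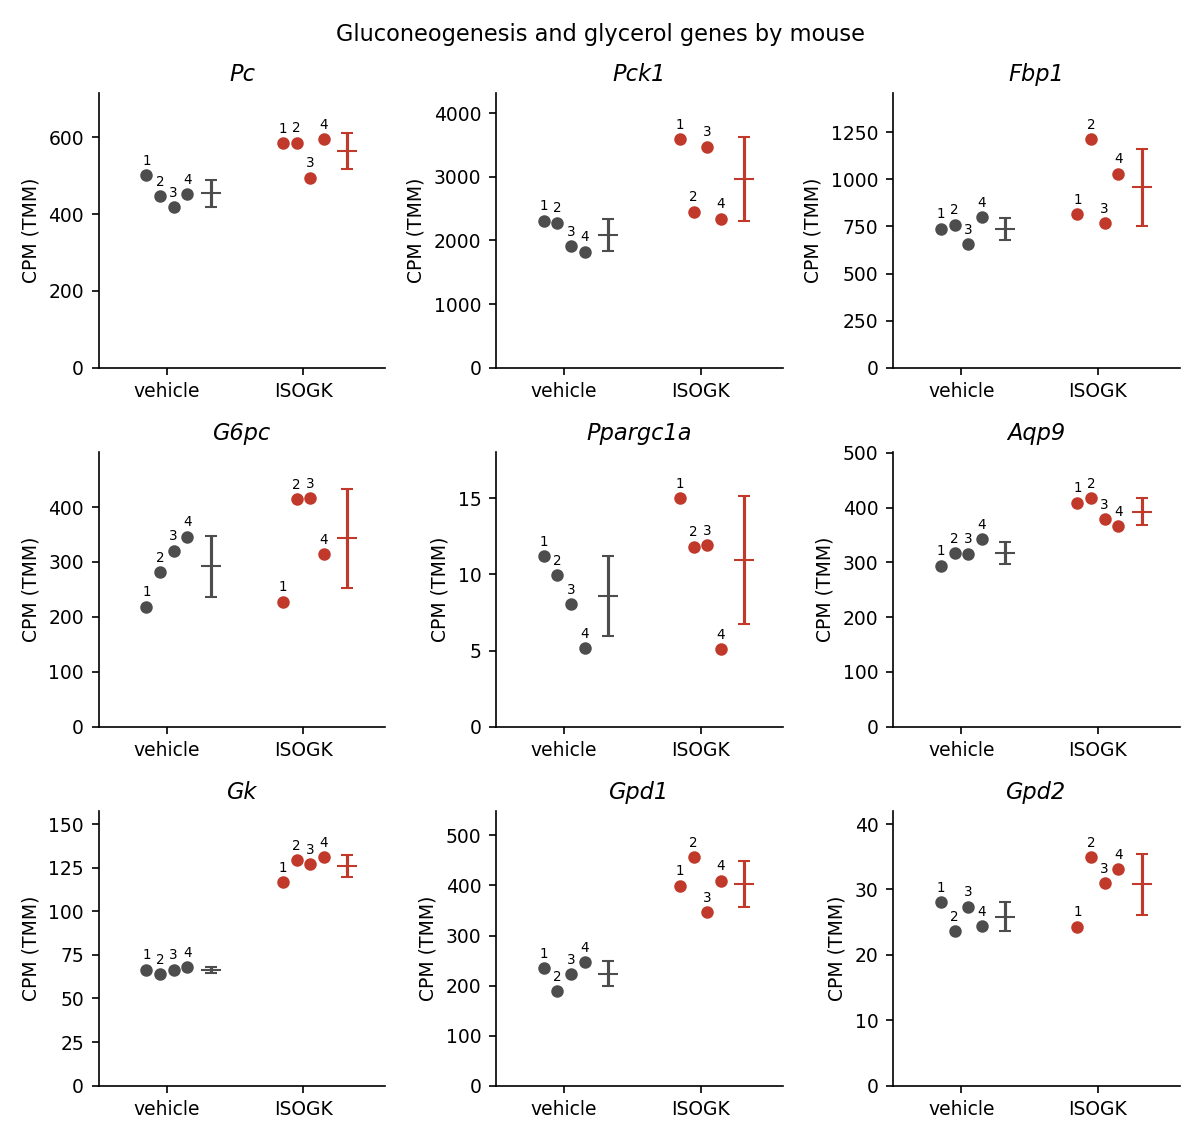
Levels of the 9 tested members by mouse, with CPM on the vertical axis from 0, 1 point and replicate number per mouse, and a bar for the mean ± SD of each group (n = 4). The 4 ISOGK points stand clear of the 4 vehicle points for *Gk* (117 to 131 against 64.0 to 68.0 CPM) and *Gpd1*, while the groups share a range for *G6pc* and *Ppargc1a*.

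Glycerol kinase, encoded by *Gk* on the X chromosome (X, 85701937 to 85776819, minus strand, GRCm38), commits free glycerol to glycerol 3-phosphate. Its level was 66.5, 64.0, 66.5 and 68.0 CPM in vehicle mice 1 to 4 and 117, 129, 127 and 131 CPM in ISOGK mice 1 to 4. The vehicle mice lay close together, and the lowest ISOGK mouse, replicate 1, was far above them. The mean went from 66.3 ± 1.65 to 126 ± 6.43 CPM (n = 4 each), a 1.90-fold rise with a log2 fold change of 0.93 (SE 0.08, 95% interval 0.75 to 1.10, adjusted p = 0.000121). The call held in 16 of 16 alternative fits, with a log2 fold change of 0.79 to 0.96. The liver table also lists *Gk2* and *Gykl1*, close copies of *Gk*, at 0 to 21 and 0 to 8 counts, against 1326 to 2500 counts for *Gk* itself. A further relative, *Gk5*, had 1 to 11 counts and was not tested.

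*Gpd1* (15, 99717515 to 99725005, plus strand) encodes the cytosolic glycerol 3-phosphate dehydrogenase, which links glycerol 3-phosphate to dihydroxyacetone phosphate in either direction. It was counted at 235, 189, 223 and 247 CPM in the vehicle mice and 400, 456, 346 and 410 CPM in the ISOGK mice. No vehicle mouse reached the lowest ISOGK mouse, replicate 3. The rise from 223 ± 24.9 to 403 ± 45.1 CPM was 1.80-fold, with a log2 fold change of 0.85 (SE 0.11, 95% interval 0.60 to 1.10, adjusted p = 0.00178), and was called in 16 of 16 alternatives. Without vehicle mouse 4, the library with muscle transcripts, it was 0.90 with an adjusted p of 0.00605. An antisense gene, *Gm16537*, not listed in the table, covers 13.0% of the exon bases of *Gpd1*, and the use of strand in counting is not given in the sources used here.

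*Gpd2* (2, 57237635 to 57370719, plus strand) encodes the mitochondrial enzyme of the same reaction, which passes its electrons to the respiratory chain. Its values were 28.1, 23.6, 27.3 and 24.4 CPM with vehicle and 24.3, 34.9, 31.0 and 33.1 CPM with ISOGK. ISOGK mouse 1 fell among the vehicle mice and the other three lay above them. The log2 fold change of 0.25 (SE 0.12, 95% interval -0.01 to 0.51) did not pass the test (adjusted p = 0.217). The difference between the cytosolic and the mitochondrial gene was measured as the ratio of their counts within each library, which does not depend on the scaling of libraries. The log2 ratio of *Gpd1* to *Gpd2* was 3.07, 3.00, 3.03 and 3.34 in the vehicle mice and 4.04, 3.71, 3.48 and 3.63 in the ISOGK mice. The groups did not overlap, and the ratio was 1.52-fold higher with ISOGK (log2 difference 0.61, two-sided exact permutation test, p = 0.0286, adjusted p = 0.0714 over 5 ratios). With 4 mice against 4, 0.0286 is the smallest p this test can give, so no ratio could pass 0.05 after the adjustment unless 3 of the 5 reached it.

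Of the glycerol channels, *Aqp9* was abundant and *Aqp3* was at the edge of detection. *Aqp9* (9, 71110659 to 71168682, minus strand) encodes the channel through which hepatocytes take up glycerol. It had 293, 317, 316 and 343 CPM in the vehicle mice and 409, 417, 379 and 366 CPM in the ISOGK mice. The groups did not overlap, with ISOGK mouse 4 nearest to vehicle mouse 4. The means were 317 ± 20.1 and 393 ± 24 CPM, and the log2 fold change of 0.31 (SE 0.09, 95% interval 0.11 to 0.51) missed the threshold (adjusted p = 0.0644), while the Wald test of DESeq2 called it (adjusted p = 0.00788). *Aqp3* (4, 41092722 to 41098183, minus strand), a channel known mainly from skin and kidney, had 3, 2, 1 and 0 counts in the vehicle mice and 0, 0, 2 and 4 in the ISOGK mice. The level that 3 counts stand for was 0.117 to 0.17 CPM per library, so no difference was detectable at this depth, and the log2 ratio of *Aqp9* to *Aqp3* (difference 0.33, p = 0.83, exact permutation test) rests on these few counts. Its sign turned without vehicle mouse 1 (-0.16), ISOGK mouse 1 (-0.19) or ISOGK mouse 2 (-0.16), and the difference was 0.10 with 2 added to each count in place of 0.5.

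*Pck1* (2, 173153048 to 173159273, plus strand) encodes cytosolic PEPCK, which turns oxaloacetate into phosphoenolpyruvate and whose promoter is printed above. It had 2309, 2278, 1910 and 1822 CPM in the vehicle mice and 3590, 2452, 3469 and 2340 CPM in the ISOGK mice. ISOGK mice 1 and 3 stood well above the vehicle group, whereas mice 2 and 4 lay just over its highest value. The means were 2080 ± 249.7 and 2963 ± 658 CPM, and the log2 fold change of 0.51 (SE 0.15, 95% interval 0.17 to 0.85) did not pass the test (adjusted p = 0.0679). It passed in 2 of 16 alternatives, the Wald test of DESeq2 (adjusted p = 0.0231) and the fit without ISOGK mouse 4 (log2 fold change 0.61, adjusted p = 0.0324). *Pck2*, the mitochondrial form, was low in liver at 3.46 to 5.02 CPM with vehicle and 3.46 to 5.07 CPM with ISOGK (log2 fold change -0.06, adjusted p = 0.873). The ratio of *Pck1* to *Pck2* differed by 0.55 on the log2 scale between groups that overlapped (exact permutation test, p = 0.114, adjusted p = 0.143).

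Pyruvate carboxylase, encoded by *Pc* (19, 4510472 to 4621752, plus strand), supplies the oxaloacetate that PEPCK uses. Its level was 502, 447, 417 and 451 CPM with vehicle and 585, 586, 495 and 595 CPM with ISOGK. ISOGK mouse 3 lay just under vehicle mouse 1, and the other ISOGK mice lay close together above the vehicle group. The log2 fold change of 0.32 (SE 0.10, 95% interval 0.10 to 0.53) did not pass the test (adjusted p = 0.0765) but was called by DESeq2 and without ISOGK mouse 3, with 0.0214 as the lowest adjusted p over the 16 alternatives.

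*Fbp1* (13, 62864753 to 62888282, minus strand) encodes the fructose-1,6-bisphosphatase of liver. It had 737, 759, 657 and 798 CPM in the vehicle mice and 816, 1214, 768 and 1031 CPM in the ISOGK mice. ISOGK mouse 3 lay within the vehicle range, and ISOGK mouse 2 was far above it. The log2 fold change was 0.38 (SE 0.14, 95% interval 0.07 to 0.68) and did not pass the test (adjusted p = 0.131).

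*G6pc* (11, 101367561 to 101377903, plus strand) encodes the catalytic subunit of glucose-6-phosphatase, which releases free glucose as the last step of the pathway. Its level was 219, 281, 320 and 346 CPM with vehicle and 228, 414, 416 and 314 CPM with ISOGK. The groups overlapped, since ISOGK mice 1 and 4 lay within the vehicle range, mouse 1 near its lowest value. The log2 fold change of 0.23 (SE 0.20, 95% interval -0.21 to 0.68, adjusted p = 0.520) did not pass the test, and its interval spans 0.

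PGC-1α, the coactivator encoded by *Ppargc1a* (5, 51454250 to 51567726, minus strand), raises transcription of *Pck1* and *G6pc* in fasting. It was low and varied most among the tested members, at 11.2, 9.97, 8.06 and 5.14 CPM with vehicle and 15.01, 11.8, 11.9 and 5.08 CPM with ISOGK. The lowest mouse of each group was replicate 4, and the groups overlapped. The log2 fold change was 0.35 (SE 0.33, 95% interval -0.39 to 1.10, adjusted p = 0.562), and 0.17 without vehicle mouse 4 and 0.59 without ISOGK mouse 4.

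Levels can be compared between genes only per length, here as CPM per kilobase of the merged exons of all annotated transcripts. These lengths ran from 1702 bases for *Fbp1* to 7743 for *Gk*. Exons not used in liver would lower the level of a gene, and which exons were used was not tested. In the vehicle group the order was *Pck1* (607), *Fbp1* (434), *G6pc* (121), *Pc* (95.6), *Aqp9* (76.6), *Gpd1* (75.5), *Gk* (8.56), *Gpd2* (3.95), *Ppargc1a* (1.30) and *Aqp3* (0.0367). The values of the mice overlapped between *G6pc* and *Pc* and between *Aqp9* and *Gpd1*, so the order within these pairs is not set. With ISOGK, *Gpd1* stood at 136 between *G6pc* (142) and *Pc* (119), and overlapped with each of them. *Gk* (16.3) stayed in the gap between *Aqp9* (94.8) and *Gpd2* (4.71), and *Pck1* (864) then overlapped with *Fbp1* (562).

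**Figure D2:**
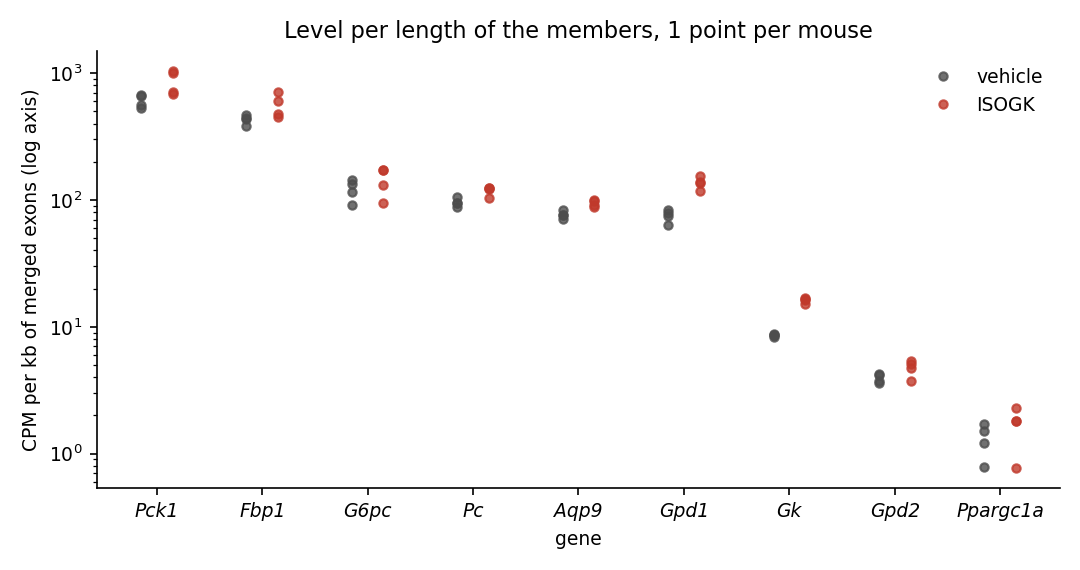
Level of each tested member per kilobase of merged exons, on a log axis of CPM per kb, with 1 point per mouse (4 vehicle, 4 ISOGK) and genes in the order of the vehicle means. The members run from 607 for *Pck1* to 1.30 for *Ppargc1a* in the vehicle group.

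Enzymes that run the opposite way at the bypass steps were compared next, in a list of 10 genes that also holds their regulators, such as *Gckr* and the bifunctional enzymes encoded by *Pfkfb1* to *Pfkfb4*. None of the 10 rose and 2 fell with ISOGK (7.55% of all genes were called), and *Pklr* was the only enzyme among them called. The median log2 fold change was -0.16 against 0.00 over all genes, and 8 of the 10 were below 0. These counts and the median cover the enzymes and their regulators together. *Pklr*, the liver pyruvate kinase that undoes the work of *Pc* and *Pck1*, went from 137, 132, 139 and 132 CPM in the vehicle mice to 49.0, 54.6, 53.2 and 64.9 CPM in the ISOGK mice (log2 fold change -1.28, SE 0.10, adjusted p = 5.22e-05). *Gckr*, which encodes a regulatory protein and not an enzyme, went from 58.7 to 82.5 CPM over the vehicle mice to 40.3 to 49.8 CPM over the ISOGK mice (log2 fold change -0.65, SE 0.12, adjusted p = 0.00757). For both genes every ISOGK mouse lay below every vehicle mouse, as was so for 7.36% of all genes, and each call held in 16 of 16 alternatives. *Pklr* shares 22.0% of its exon bases with *Hcn3* on the other strand, which had 14 to 166 counts. *Pfkl*, the liver phosphofructokinase that opposes *Fbp1*, had 35.8, 27.7, 30.3 and 27.9 CPM with vehicle and 25.4, 23.6, 24.8 and 40.5 CPM with ISOGK, and did not pass the test (log2 fold change -0.09, adjusted p = 0.794). With 1 mouse left out, its log2 fold change ran from -0.31 (without ISOGK mouse 4, adjusted p = 0.136) to -0.0035 (without vehicle mouse 1).

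**Figure D3:**
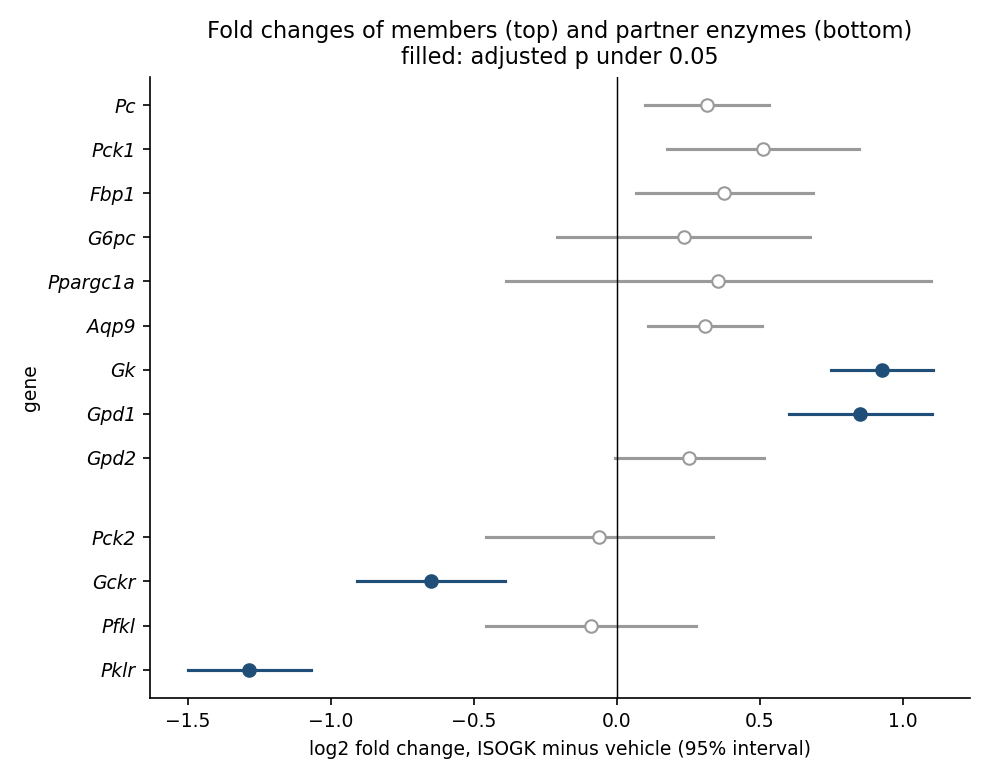
Log2 fold change of ISOGK over vehicle with its 95% interval for the 9 tested members (top) and 4 partner, opposing or regulatory genes (bottom). The values are from 4 mice per group, with filled points for an adjusted p under 0.05. *Gk* (0.93) and *Gpd1* (0.85) are the filled members, all members lie right of 0, and *Pklr* (-1.28) and *Gckr* (-0.65) are filled on the left.

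Within each library, the enzymes of a bypass were then set against each other. The log2 ratio of *Pck1* to *Pklr* was 4.08, 4.11, 3.78 and 3.78 in the vehicle mice and 6.19, 5.49, 6.03 and 5.17 in the ISOGK mice. Every ISOGK mouse lay above every vehicle mouse, by a mean of 1.78 on the log2 scale or 3.44-fold (two-sided exact permutation test, p = 0.0286, adjusted p = 0.0714). Of this pair only the glycolytic gene passed the test across all genes. The ratio of *Fbp1* to *Pfkl* differed by 0.47 between groups that overlapped (exact permutation test, p = 0.0857, adjusted p = 0.143).

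**Figure D4:**
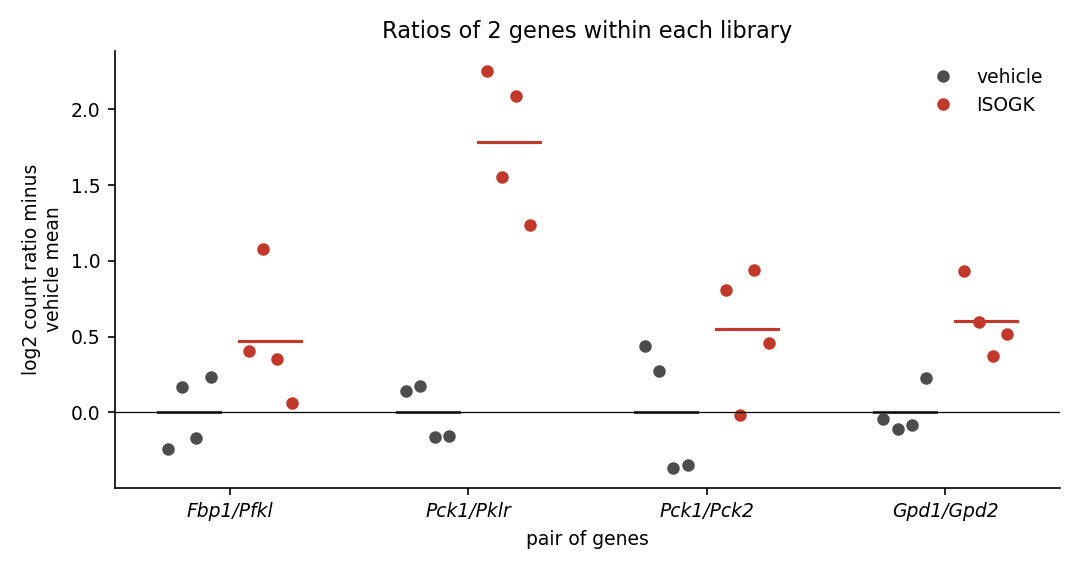
Log2 ratio of the counts of 2 genes within a library, drawn as the difference from the vehicle mean, for 4 pairs with 1 point per mouse and a line at each group mean (n = 4). The ISOGK points stand clear of the vehicle points for *Pck1*/*Pklr* (mean difference 1.78) and *Gpd1*/*Gpd2* (0.61), and overlap for the other pairs.

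Other genes that supply or use glycerol were taken as a list of 12, of which 10 were tested. With ISOGK 3 rose and 1 fell, beside the 7.55% called over all genes, and the median log2 fold change was 0.05. *Mgll*, the monoacylglycerol lipase that frees the last fatty acid and glycerol, had 93.1, 65.7, 96.7 and 91.7 CPM with vehicle and 141, 163, 144 and 189 CPM with ISOGK (log2 fold change 0.88, SE 0.14, adjusted p = 0.00336). *Aqp11*, an aquaporin of intracellular membranes, went from 23.1, 28.3, 26.5 and 31.6 CPM to 20.1, 15.8, 14.5 and 15.04 CPM (log2 fold change -0.74, SE 0.13, adjusted p = 0.00607). Neither gene had overlapping groups, and both calls held in 16 of 16 alternatives. *Pnpla2*, the triglyceride lipase that starts fat breakdown, was at 100.4 ± 10.4 and 132 ± 14.5 CPM (log2 fold change 0.40, adjusted p = 0.0466), and *Glyctk*, a glycerate kinase, at 230.3 ± 26.2 and 316 ± 46.5 CPM (0.46, adjusted p = 0.0465). These calls held in 5 of 16 alternatives for *Pnpla2* and in 7 of 16 for *Glyctk*. *Pnpla2* lost its call without each of the vehicle mice in turn and without ISOGK mouse 1 or 2 (adjusted p 0.0780 to 0.136), and *Glyctk* without each of the vehicle mice in turn and without ISOGK mouse 1 or 4 (0.0791 to 0.143). Scaling by library size alone also ended both calls (adjusted p = 0.153 for *Pnpla2* and 0.119 for *Glyctk*). *Aqp7*, the glycerol channel of adipocytes, had 0 to 3 counts per library and was not tested.

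The remaining steps between pyruvate or amino acids and glucose, with their transporters, formed a list of 24 genes, of which 22 were tested. With ISOGK 2 of the 22 rose and none fell, which is near the 7.55% called over all genes. Of the 22, 17 log2 fold changes were above 0, and their median was 0.13. *Tpi1*, which interconverts the triose phosphates that glycerol and gluconeogenesis share, went from 291, 312, 290.0 and 313 CPM to 386, 444, 355 and 504 CPM (log2 fold change 0.49, SE 0.11, adjusted p = 0.0265). *Slc25a10*, the mitochondrial dicarboxylate carrier, went from 72.4, 77.1, 80.5 and 97.3 CPM to 111, 148, 103 and 114 CPM (0.54, SE 0.13, adjusted p = 0.0288). The groups did not overlap for either gene, and the calls held in 10 of 16 alternatives for *Tpi1* and in 11 of 16 for *Slc25a10*. They were lost without vehicle mouse 1, 2 or 3 or ISOGK mouse 2 for both, and without vehicle mouse 4 for *Tpi1*, with adjusted p of 0.0575 to 0.0983 in these fits. Scaling by library size alone ended both as well (adjusted p = 0.0504 for *Tpi1* and 0.0813 for *Slc25a10*). *Fbp2*, the muscle form of the bisphosphatase, had 0 to 8 counts and was not tested, and *G6pc2*, the pancreatic islet form of the phosphatase subunit, was not listed.

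Hormone receptors, kinases and transcription factors that set the pathway were taken as 31 genes, all tested. With ISOGK 1 rose and 1 fell, a share no larger than the 7.55% called over all genes, and the median log2 fold change was -0.03. *Creb3l3*, a liver factor of the CREB family, went from 209, 165, 216 and 209 CPM to 265, 290, 245 and 279 CPM (log2 fold change 0.43, SE 0.11, adjusted p = 0.0328). *Nr3c1*, the glucocorticoid receptor, went from 54.7, 55.1, 50.2 and 45.0 CPM to 39.4, 32.8, 43.2 and 39.0 CPM (-0.41, SE 0.11, adjusted p = 0.0376). Neither gene had overlapping groups, yet the calls held in only 8 of 16 alternatives for *Creb3l3* and 9 of 16 for *Nr3c1*, and each was lost in 6 of 8 fits that left out 1 mouse. For *Creb3l3* these were the fits without each of the vehicle mice in turn and without ISOGK mouse 2 or 4 (adjusted p 0.0553 to 0.105). Library size alone also ended the call of *Creb3l3* (0.112). For *Nr3c1* they were those without vehicle mouse 1, 2 or 3 and without ISOGK mouse 1, 2 or 4 (0.0572 to 0.121). The replicate block ended both calls as well (adjusted p = 0.0596 for *Creb3l3* and 0.0599 for *Nr3c1*).

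**Figure D5:**
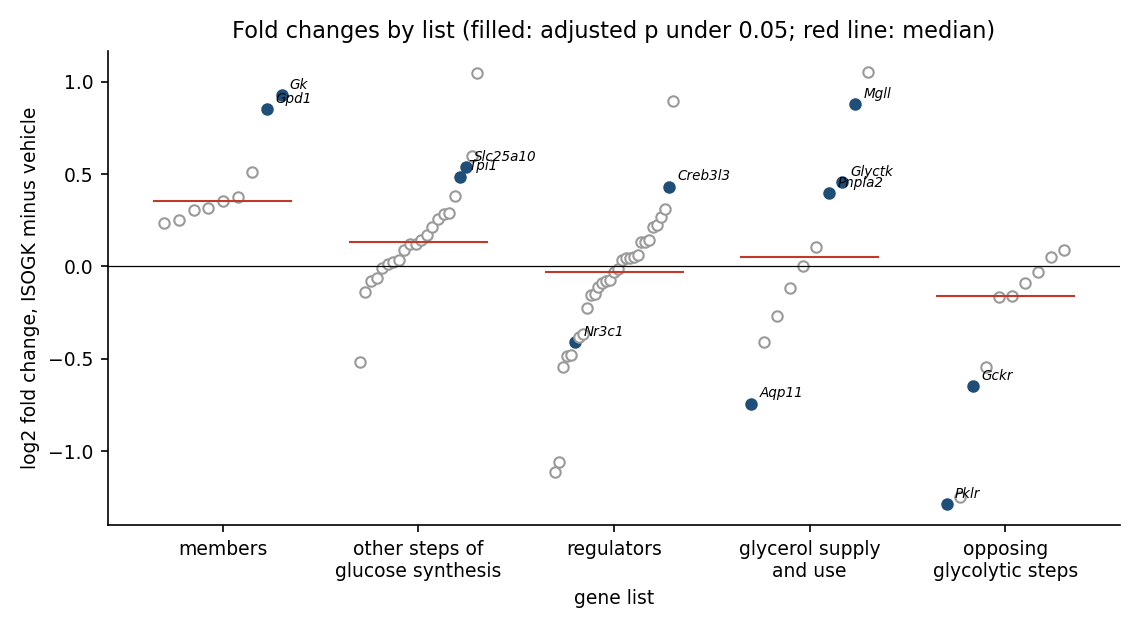
Log2 fold change of ISOGK over vehicle (4 mice per group) for each tested gene of 5 lists, sorted within a list, with filled and named points at an adjusted p under 0.05 and a red line at the median of the list. The medians are 0.35 for the members, 0.13 for the other steps of glucose synthesis and -0.03 for the regulators. They are 0.05 for glycerol supply and use, and -0.16 for the opposing glycolytic genes with their regulators.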

How the data were processed

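Liver RNA was sequenced from 4 vehicle-treated and 4 ISOGK-treated mice, with 1 library per mouse. Single-end Illumina reads had been mapped by the authors with HISAT2 (mm10 per the labels) and counted with StringTie, and the table they deposited holds unnormalized whole counts by gene symbol. Columns named DMSO were taken as the vehicle libraries of the same number. The members and lists were chosen with earlier results of these data known. Every member is named in the text, with the genes of each wider list at an adjusted p under 0.05 and the partner genes *Pfkl*, *Pklr* and *Pck2*. A further planned gene and its ratio are not reported here.

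Low genes were removed by filterByExpr (count of 10, total of 15), which left 12307 of 16540 genes, scaled with TMM and tested with the robust quasi-likelihood test of edgeR 4.0.16 in R 4.3.3. The common biological coefficient of variation was 0.164. Ratios were log2 of counts plus 0.5, with exact permutation tests over mice. Alternatives used DESeq2 1.42.0, limma-voom (limma 3.58.1), other scalings and filters, a replicate block, and each mouse left out. Methods were tested on simulated counts. Positions and exon lengths are those of GENCODE M21 (GRCm38), and promoters those of RefSeq. Depth limits the precision of low counts, and floors cover counting error only. That libraries came from separate mice rests on the labels. Chi-square per gene between libraries of a group was 18.1 to 99.6, more than counting error alone gives, so none was a second sequencing of another. It cannot show whether any libraries came from the same mouse.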

Additional observations from a re-analysis of the deposited data

Results flagged for a closer look

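Among 52 groups of 4 mice examined for the named genes and ratios, 4 held a mouse far from the other 3 by Dixon's criterion, where chance gives 2.6. *Pc* was at 495 CPM in ISOGK mouse 3 against 585 to 595 CPM in the other ISOGK mice. *Creb3l3* was at 165 CPM in vehicle mouse 2 against 209 to 216 CPM in the other vehicle mice. *Mgll* was at 65.7 CPM in the same vehicle mouse against 91.7 to 96.7 CPM. *Pfkl* was at 40.5 CPM in ISOGK mouse 4 against 23.6 to 25.4 CPM, the only value of that group above the vehicle range.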

How the results depend on the processing

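*Gk* and *Gpd1* kept their call and direction in all 16 alternatives, and the members' other 7 log2 fold changes stayed above 0 in each. The Wald test of DESeq2 called 1435 genes against 929, and 5 members against 2, adding *Pck1*, *Pc* and *Aqp9*. It also called 5 of the other steps of glucose synthesis against 2, and 4 regulators against 2. Library size alone called 262 higher and 804 lower genes (24.6% higher, against 54.5%) and 0 of the other steps, and limma-voom called 2 glycerol genes against 4. Leaving out 1 mouse gave 379 to 1235 calls over all genes (379 to 550 without 1 of the vehicle mice or ISOGK mouse 2), 2 to 3 among members, 0 to 4 among the other steps (4 without ISOGK mouse 3), 0 to 2 regulators and 2 to 4 glycerol genes. The log2 fold change of *Pck2* ran from -0.18 to 0.028 with 1 mouse left out, above 0 without vehicle mouse 3 (0.028) or ISOGK mouse 4 (0.011), and the cause was not tested. The replicate block called 827 genes, 2 members, 4 other steps and 1 regulator, which was neither *Creb3l3* (adjusted p = 0.0596) nor *Nr3c1* (0.0599). Over all tested genes, mice of the same number did not deviate together (correlations -0.01 to 0.08, against -0.21 to 0.22 for unlike numbers). These correlations cannot exclude that mice of the same number shared a cage, day or batch, which the labels do not give. The block's sign-flip test of a ratio cannot go below 0.125. With 1 mouse left out, an exact test of a ratio cannot go below 0.0571.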

Other observations

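Gluconeogenesis is strongest in hepatocytes near the portal vein, so markers of position in the lobule were counted as well. Of 10 periportal markers, *Hal* and *Arg1* rose and none fell, with a summed level of 11551 to 14236 CPM with vehicle and 11869 to 15618 CPM with ISOGK. Of 10 pericentral markers, *Oat* and *Lhpp* rose and *Cyp1a2* and *Rgn* fell, with 11843 to 13061 and 11470 to 14505 CPM. Over all tested genes, 7.55% were called, 4.11% as higher and 3.44% as lower. The median log2 fold change was 0.03 for the periportal and 0.04 for the pericentral list.

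Of the wider lists, 5 genes had an absolute log2 fold change over 1 without passing the test, and are named here after their values were seen. In *Ldha*, the lactate dehydrogenase that returns lactate to pyruvate, the vehicle mice had 923, 746, 840.3 and 981 CPM and the ISOGK mice 1324, 1703, 1095 and 3085 CPM, without overlap (log2 fold change 1.05, adjusted p = 0.0693), and ISOGK mouse 4 stood far above the rest. The groups overlapped for the other 4. *G0s2*, an inhibitor of the lipase encoded by *Pnpla2*, had a log2 fold change of 1.05 (adjusted p = 0.0975). The values were -1.25 for *Pfkfb3* (adjusted p = 0.152), -1.11 for *Lpin1* (0.399), where ISOGK mouse 2 was at 28.4 CPM against 192 to 452 CPM in the other ISOGK mice, and -1.06 for *Nr4a1* (0.293).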
